A study of Homo sapiens with 12 samples.

Results

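GYG2 and 8 further genes of glycogen metabolism were followed in MDA-MB-231 cells after knockdown of NONO or of PKM2. The 9 genes were GYG1, GYG2, GYS1, GBE1, PYGB, PYGL, UGP2, PGM1 and PPP1R3C, selected by gene name from the 60558 genes whose identifiers both deposited tables hold, and all 9 were measured in both experiments. They were chosen with the values of both knockdown comparisons known, so their levels and fold changes are given as a description, without a test, and the counts of members called support nothing.

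MDA-MB-231 is an established human triple-negative breast cancer cell line. The submitters' design text names siRNA as the means of knockdown, and the paper's methods for the sequencing name no reagent. NONO is a multifunctional RNA- and DNA-binding protein of paraspeckles, and PKM2 is a splice form of pyruvate kinase M, which closes glycolysis. Cells of the NONO experiment were either negative controls (NC) or NONO knockdown (KD), and cells of the PKM2 experiment were either NC or PKM2 KD, with 3 libraries in each of the 4 groups. Each experiment has NC libraries of its own, which served as the reference for its knockdown. Nothing in the labels says that the libraries of a group came from separate cultures, so the errors measure the spread between these libraries, which may be technical.

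Glycogen is the branched glucose polymer in which cells store sugar. Phosphoglucomutase turns glucose 6-phosphate into glucose 1-phosphate, UGP2 makes UDP-glucose from it, glycogenin primes a new chain by glycosylating itself, glycogen synthase extends the chain and the branching enzyme adds its branches. Glycogen phosphorylase releases glucose 1-phosphate again, and targeting subunits such as PPP1R3C bring protein phosphatase 1 to glycogen, where it activates the synthase and switches off the phosphorylase. Muscle, liver and brain carry their own forms of several of these enzymes.

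Poly(A)-selected RNA was read as pairs of 150 bases, and the libraries held from 19861762 to 28455268 estimated counts. The targeted genes followed the labels. NONO lay at 358 to 391 CPM (read counts scaled to library size) in its NC libraries and at 61.8 to 64.3 CPM after NONO KD. PKM, whose count covers both splice forms, lay at 2211 to 2324 CPM in its NC libraries and at 218 to 234 CPM after PKM2 KD. The mesenchymal marker VIM was at 3383 to 4413 TPM (a level per transcript length) as group means, whereas ESR1, PGR and CDH1 stayed at or below 0.157 TPM and the lymphocyte marker PTPRC at or below 0.07 TPM. ERBB2 and EPCAM, also listed as low markers, were at 14.3 to 30.8 and at 1.64 to 3.32 TPM. PECAM1, listed as an endothelial marker, was at 0.293 to 1.86 TPM. In the NONO experiment the first NC library, and in the PKM2 experiment the third KD library, lay farthest from their replicates. Without either of them the same numbers of members were called as with all libraries. Bulk RNA gives levels relative to each library, so fewer cells with a transcript and less of it per cell cannot be told apart.

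The 250 bases before the start sites of GYG2, GYG1 and PPP1R3C are shown because the first of them is the member with the largest fold change and the other two are the members whose promoters hold the palindromic E-box. The sequences are those of RefSeq on GRCh38.p14, which is not the hg19 build named in the submitters' processing notes, and they serve for location only. Each is printed 5′ to 3′ on the gene's strand. Capitals mark the letters ACGTG, the core of the hypoxia response element, on either strand, together with the E-box CACGTG, which contains that core.
GYG2 (chrX:2828680-2828929, plus strand): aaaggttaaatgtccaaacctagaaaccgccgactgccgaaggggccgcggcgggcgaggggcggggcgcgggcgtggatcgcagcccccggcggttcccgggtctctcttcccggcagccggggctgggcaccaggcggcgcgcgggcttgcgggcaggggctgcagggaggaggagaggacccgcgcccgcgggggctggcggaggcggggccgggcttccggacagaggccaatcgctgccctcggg
GYG1 (chr3:148991290-148991539, plus strand): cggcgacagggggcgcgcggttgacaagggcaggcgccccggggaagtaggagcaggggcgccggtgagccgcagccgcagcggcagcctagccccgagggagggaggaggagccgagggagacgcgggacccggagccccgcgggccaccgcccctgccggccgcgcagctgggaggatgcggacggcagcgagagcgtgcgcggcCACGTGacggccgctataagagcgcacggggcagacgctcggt
PPP1R3C (chr10:91633072-91633321, minus strand): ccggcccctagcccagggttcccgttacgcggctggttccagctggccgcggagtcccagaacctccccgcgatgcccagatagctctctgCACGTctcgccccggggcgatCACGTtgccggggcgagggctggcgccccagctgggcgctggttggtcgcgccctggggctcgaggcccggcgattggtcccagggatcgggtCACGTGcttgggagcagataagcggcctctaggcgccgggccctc

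In GYG1 the E-box began 43 bases before the start and in PPP1R3C 45 bases before it, and PPP1R3C held ACGTG at 2 further places on the opposite strand. All 9 members matched the promoter table, with 12 windows of 300 bases that reach 50 bases past the start. ACGTG lay in 5 of the 12 windows, those of GBE1, GYG1, PPP1R3C and 1 each of PGM1 and UGP2, and in 21.4% of all 35116 windows of the table. CACGTG lay in 2 of the 12 and in 7.26% of all windows. The cyclic AMP response element TGACGTCA, searched on both strands, lay in 0 of the 12 and in 1.85% of all windows. The GYG2 window held none of the 3 motifs, nor did those of GYS1, PYGB and PYGL. Its 250 upstream bases were 76% G or C, against a median of 58% over all windows. Those of GYG1, PYGB and PYGL were 77.2%, 76.4% and 76% G or C, so GYG2 did not stand apart from them. GYG1 and PPP1R3C, the members with the E-box, had log2 fold changes of opposite sign after PKM2 KD, as given below.

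In NC cells the order of the members by TPM ran from PYGL, the liver form of glycogen phosphorylase, down to GYG2, the liver form of glycogenin. PYGL stood at 181 ± 6.4 TPM (SD, n = 3) in NC cells beside the NONO knockdown and at 180 ± 4.4 TPM in those beside the PKM2 knockdown. PYGB, the brain form of the phosphorylase, followed at 90.4 ± 1.2 and 93.8 ± 2.3 TPM. UGP2, PGM1 and GBE1 lay between 51.6 and 69.5 TPM as group means, with UGP2 highest and GBE1 lowest of the 3 in both experiments. GYS1, the glycogen synthase of muscle and most other tissues, and GYG1, the widely expressed glycogenin, lay between 27.5 and 32.6 TPM. PPP1R3C was at 2.91 ± 0.57 and 2.74 ± 0.26 TPM, and GYG2 at 0.517 ± 0.038 and 0.643 ± 0.23 TPM. Neighbours in this order did not overlap between libraries, except PGM1 and GBE1 in the NONO experiment. GYS1 ranked above GYG1 in the NONO table and below it in the PKM2 table, and the 2 tables, which were normalized separately, give GYG1 lengths of 2052 and 5996 bases. GYG2 made up 1.70% to 2.01% of the summed glycogenin TPM in the NC libraries of the NONO experiment and 1.25% to 2.44% in those of the PKM2 experiment.

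Some forms of these enzymes known from other tissues were at or near the floor, unlike PYGL and PYGB. GYS2, the liver glycogen synthase, had at most 3 counts in any library. G6PC1, the catalytic subunit of liver glucose 6-phosphatase, and HK3 had at most 1 count. PYGM, the muscle phosphorylase, had 1 to 7 counts in the NC libraries of both experiments.

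GYG2 was lower in every knockdown library than in any NC library of its experiment. Its counts in the NONO experiment were 22, 26 and 22 in the NC libraries and 3, 7 and 7 after NONO KD. In the PKM2 experiment they were 34, 29 and 23 in the NC libraries and 1, 0 and 0 after PKM2 KD. The ratio of summed counts after NONO KD, scaled to library size, was 25.5% of NC, with an exact 95% interval (Clopper-Pearson) from 14.1% to 43.8%. After PKM2 KD the group held 1 count in all, and the ratio was 1.33% of NC with an interval from 0.0332% to 7.59%. These intervals cover counting error only. GYG2 passed the filter on low counts through its NC libraries alone. All 3 NC libraries of each experiment were above the cutoff of 0.494 CPM (NONO) or 0.390 CPM (PKM2), and 0 KD libraries were above it. Its entry into the test thus rested on the group where it was higher, so its call is no support. The single count in the first PKM2 KD library was deposited as 0.14 TPM, against 0.39 to 0.83 TPM for the 23 to 34 counts of the NC libraries, so TPM and counts give different ratios for this gene. GYG2 has 1 annotated pseudogene, and how reads shared with it were counted is not given in the sources used here.

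**Figure D1:**
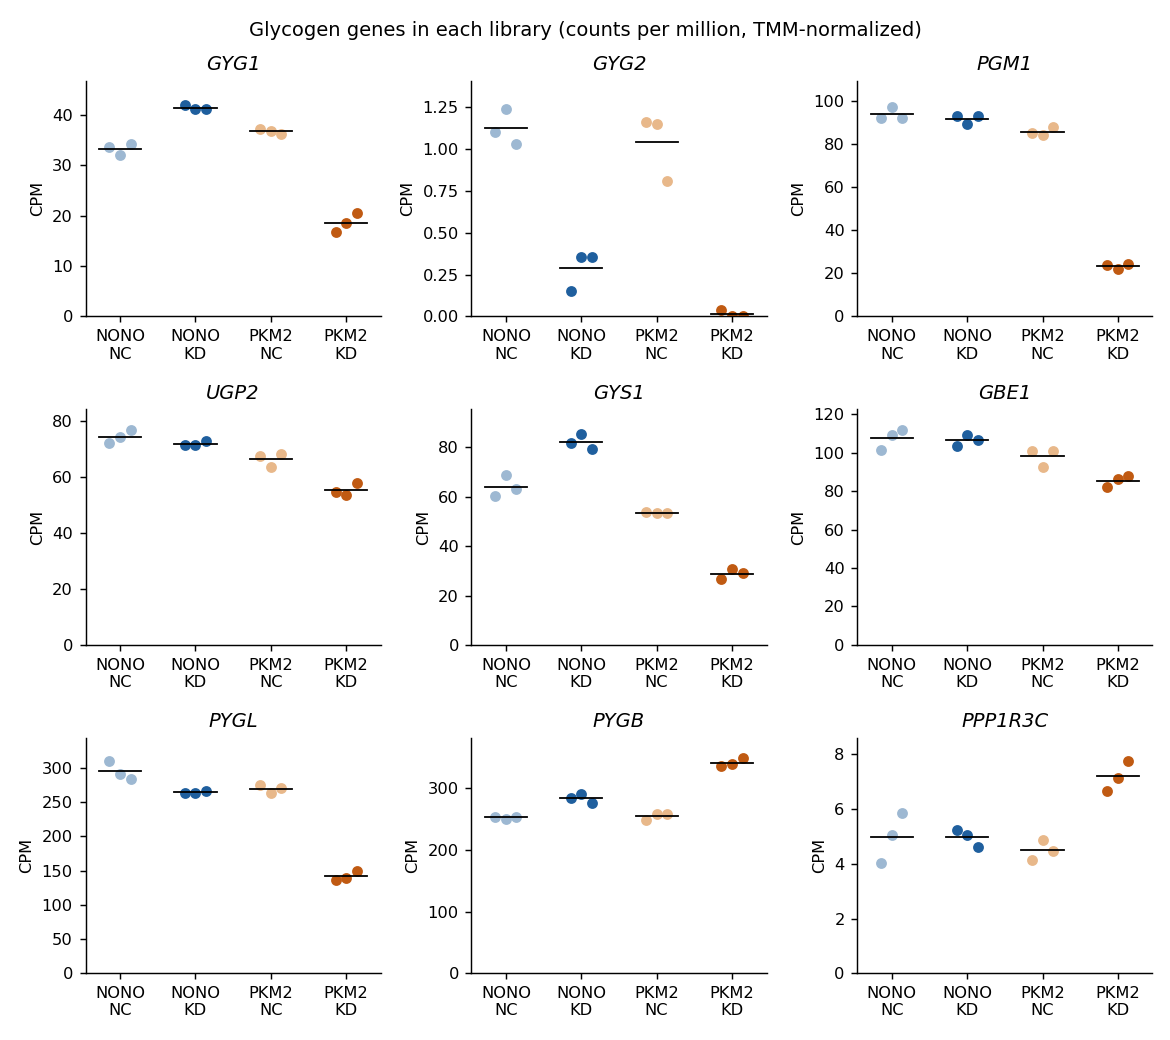
CPM of each of the 9 glycogen genes (vertical axis, from 0, on its own scale per panel) in the 12 libraries, by group (horizontal axis); points are libraries and lines are group means. GYG2 lies below NC in both knockdowns, PGM1 lies at 22.2 to 24.1 CPM in the PKM2 KD points, and GYG1 and GYS1 lie above their NC libraries after NONO KD and below them after PKM2 KD.

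GYG1, the other glycogenin, moved in opposite directions in the 2 experiments. Its level was 33.6, 32.1 and 34.2 CPM in the NC libraries of the NONO experiment and 42, 41.2 and 41.1 CPM after NONO KD, a log2 fold change of 0.32 ± 0.058 (SE, n = 3 per group). In the PKM2 experiment it was 37.2, 36.8 and 36.1 CPM in the NC libraries and 16.7, 18.5 and 20.5 CPM after PKM2 KD, a log2 fold change of -0.98 ± 0.077. The groups did not overlap in either experiment, and all 3 KD libraries lay above NC in the first and below NC in the second. The counts of GYG1 were not whole in any of the 6 libraries of the PKM2 table and whole in all 6 of the NONO table, and GYG1 has 3 annotated pseudogenes, and whether reads shared with these were split was not tested. Summed over both glycogenins, the level went from 28.7 ± 0.82 to 33.9 ± 0.90 TPM with NONO KD and from 33.3 ± 1.9 to 15.2 ± 1.1 TPM with PKM2 KD, so most of each sum was GYG1.

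PGM1, the main phosphoglucomutase, was the member with the lowest level relative to NC after PKM2 KD apart from GYG2. It stood at 85.1, 84.0 and 87.7 CPM in the NC libraries of the PKM2 experiment and at 23.7, 22.2 and 24.1 CPM after PKM2 KD, a log2 fold change of -1.87 ± 0.058. In the NONO experiment it was 92.2, 97.4 and 92.3 CPM in the NC libraries and 92.9, 89.2 and 92.9 CPM after KD, a log2 fold change of -0.04 ± 0.045, and the groups overlapped. UGP2, which makes UDP-glucose, was 67.3, 63.3 and 68.1 CPM in the NC libraries of the PKM2 experiment and 54.4, 53.3 and 57.8 CPM after PKM2 KD, a log2 fold change of -0.26 ± 0.057. After NONO KD its log2 fold change was -0.05 ± 0.046, with overlapping CPM. The TPM of UGP2 and PGM1 did not overlap between the groups of the NONO experiment, at 61.5 to 64.8 after KD against 66.4 to 72.3 in NC for UGP2 and 55.0 to 58.2 against 59.0 to 62.7 for PGM1, so for these genes the separation depended on the scale. PGM1 shares 197 exon bases with ITGB3BP on the opposite strand and PYGL 180 with AL358334.3 (GENCODE 29), and whether counting used the strand is not given in the sources used here.

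GYS1, which lengthens the chain, had the same pattern as GYG1. It was 60.2, 68.7 and 63.1 CPM in the NC libraries of the NONO experiment and 81.9, 85.3 and 79.4 CPM after NONO KD, a log2 fold change of 0.36 ± 0.058. In the PKM2 experiment it was 54.0, 53.3 and 53.6 CPM in the NC libraries and 26.8, 30.9 and 29.1 CPM after PKM2 KD, a log2 fold change of -0.89 ± 0.064. Every KD library was above NC in the first experiment and below NC in the second. The TPM of GYS1 spread more than its CPM after NONO KD, at 38.9, 48.9 and 34.7 TPM, and the counts per TPM, which reflect the transcript length used for TPM, were 98.3%, 81.1% and 108% of the NC mean. In the NC libraries they were 92.3%, 109% and 99.2% of that mean. There were 10600 genes with at least 100 counts in each library of that experiment. Of these, 30.0% had a mean shift in counts per TPM at least as large. This share ranks the mean and does not measure the spread between libraries.

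GBE1, the branching enzyme, was among the members that moved least. It was 101 to 112 CPM in the NC libraries of the NONO experiment and 103 to 109 CPM after NONO KD, a log2 fold change of -0.02 ± 0.049 with overlapping groups. In the PKM2 experiment it was 101, 92.3 and 101 CPM in the NC libraries and 82.0, 86.5 and 87.8 CPM after PKM2 KD, a log2 fold change of -0.20 ± 0.055, and the groups did not overlap.

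The phosphorylases changed in opposite directions, so that the order of the liver and brain forms turned over after PKM2 KD. PYGL was 275, 263 and 271 CPM in the NC libraries of the PKM2 experiment and 137, 139 and 150 CPM after PKM2 KD, a log2 fold change of -0.93 ± 0.050. PYGB was 248, 258 and 257 CPM in the same NC libraries and 334, 338 and 347 CPM after PKM2 KD, a log2 fold change of 0.42 ± 0.044. On the TPM scale PYGB made up 33.2%, 35.4% and 34.4% of the summed phosphorylase level in the NC libraries and 56.3%, 55.8% and 55.1% after PKM2 KD. The sum of both went from 273 ± 2.4 to 204 ± 1.4 TPM. In the NONO experiment the shift had the same sign and was smaller. PYGL was 309, 291 and 284 CPM in the NC libraries and 263, 263 and 267 CPM after NONO KD, a log2 fold change of -0.16 ± 0.043. PYGB was 253, 250 and 253 CPM and then 283, 289 and 276 CPM, a log2 fold change of 0.17 ± 0.039. The share of PYGB was 32.8%, 32.8% and 34.2% in the NC libraries and 38.6%, 37.9% and 37.9% after NONO KD, and the groups did not overlap.

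**Figure D2:**
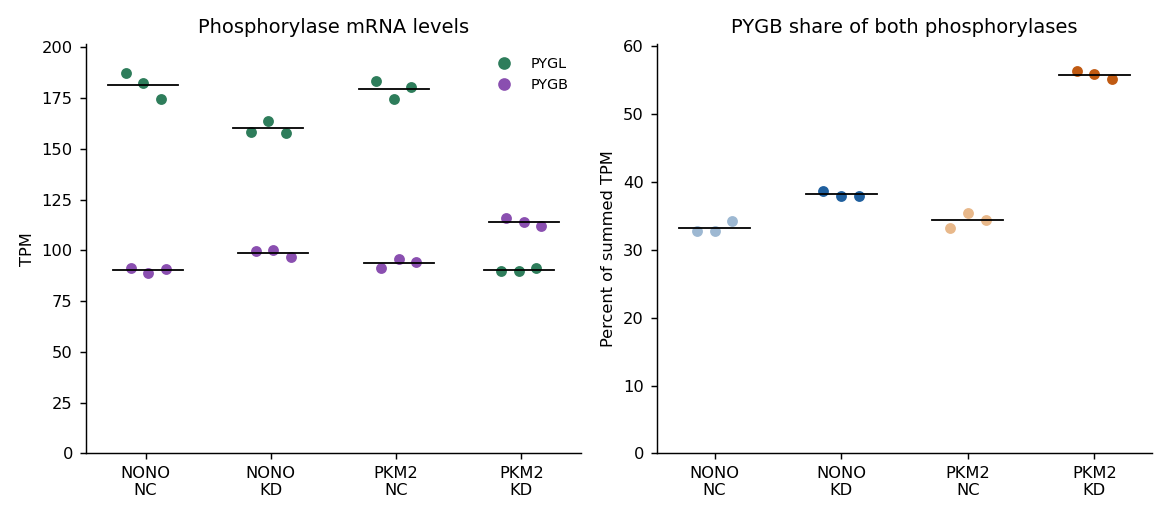
Left, TPM of PYGL and PYGB in each library; right, PYGB as a percentage of the summed TPM of both; points are libraries, lines are group means and groups are on the horizontal axes. PYGL lies above PYGB in the libraries of 3 groups and below it in the 3 PKM2 KD libraries, where the PYGB share is 55.1% to 56.3%.

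PPP1R3C, the targeting subunit, had few counts. It was 4.13, 4.89 and 4.48 CPM in the NC libraries of the PKM2 experiment, from 121 to 127 counts, and 6.67, 7.13 and 7.77 CPM after PKM2 KD, a log2 fold change of 0.68 ± 0.13 with no overlap. In the NONO experiment it was 4.01, 5.05 and 5.84 CPM in the NC libraries and 5.24, 5.03 and 4.63 CPM after NONO KD, a log2 fold change of -0.00 ± 0.17, and the KD libraries lay inside the NC range. PPP1R3C and PYGB were thus the members higher after PKM2 KD.

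**Figure D3:**
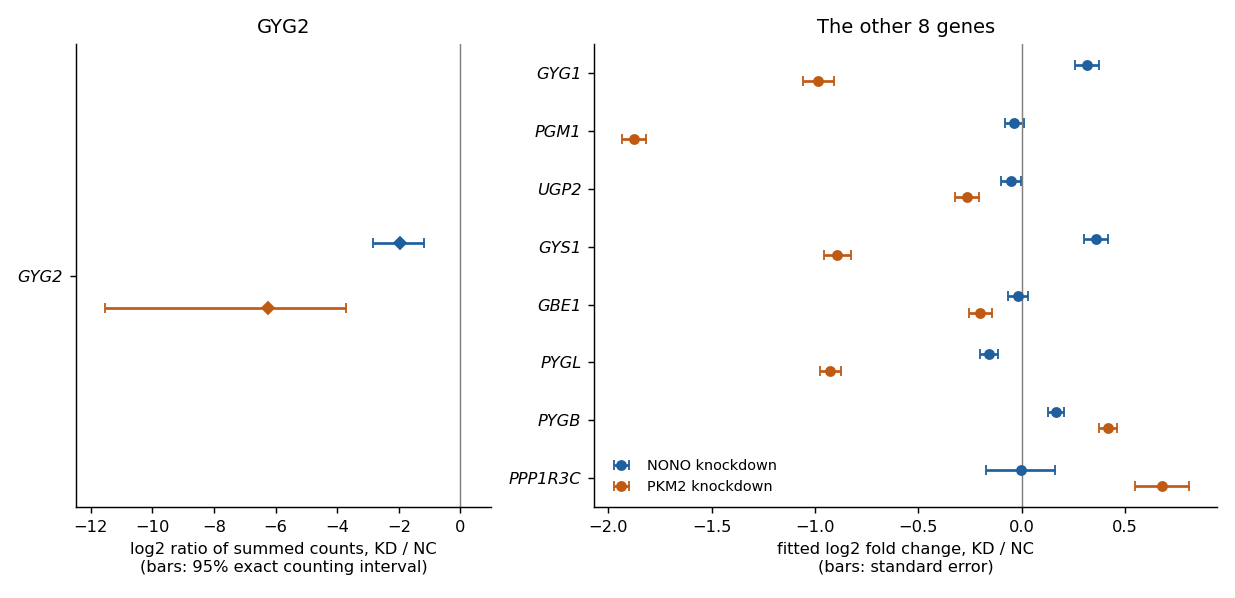
Left, log2 ratio of summed GYG2 counts, KD over NC, with the exact 95% counting interval; right, fitted log2 fold changes of the other 8 genes with their standard errors, for NONO KD and PKM2 KD (n = 3 per group). PGM1 lies at -1.87 after PKM2 KD and near 0 after NONO KD, and GYG1 and GYS1 lie on opposite sides of 0.

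By edgeR's quasi-likelihood test at a Benjamini-Hochberg adjusted p below 0.05 over all genes, 2 of the 9 members were called lower after NONO KD (GYG2 and PYGL, of which PYGL lost its call when any 1 KD library was left out), where 17.2% of the 14832 genes tested were called lower. A further 3 were called higher (GYG1, GYS1 and PYGB), against 16.2% of all genes. GYS1 and PYGB lost these calls on the TPM scale, and PYGB also without the second KD library. After PKM2 KD 7 were called lower and 2 higher (PYGB and PPP1R3C), against 34.7% and 33.6% of the 15524 genes tested. CPM of the groups did not overlap for 5 of 9 members in the NONO experiment and 9 of 9 in the PKM2 experiment, against 46.1% and 71.9% of all genes. Under the study's cutoffs, a change over 2-fold with a raw p under 0.05, GYG2 alone was lower after NONO KD and GYG2 and PGM1 after PKM2 KD, against 2.16% and 13.8% of all genes, and 0 members were higher in either, against 0.789% and 7.05%. The median log2 fold change of the members was -0.02 after NONO KD and -0.89 after PKM2 KD, beside -0.01 for all genes tested in each experiment. Because the members were chosen on these comparisons, the counts and medians describe them and test nothing.

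Set side by side, the log2 fold change after PKM2 KD minus that after NONO KD was -1.85 ± 0.071 (SE) for PGM1, -1.31 ± 0.097 for GYG1, -1.27 ± 0.087 for GYS1 and -0.78 ± 0.069 for PYGL. It was 0.67 ± 0.21 for PPP1R3C and 0.24 ± 0.058 for PYGB. GBE1 and UGP2 differed least, by -0.20 ± 0.075 and -0.23 ± 0.072. These differences too are a description.

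A further 41 genes of glycogen metabolism were listed by role, with earlier results of these data known, and these were tested. After NONO KD 34 of them passed the low-count filter, and 10 were called lower, 8 higher and 16 not called, where 17.2% of all genes tested were lower and 16.2% higher. The 8 higher became 3 to 7 with 1 library left out (3 without the second KD library) and 1 on the TPM scale. After PKM2 KD 36 passed, and 19 were called lower, 12 higher and 5 not called, where 34.7% of all genes were lower and 33.6% higher, so that the share higher was near that of all genes. The 19 included PPP1R3G and the 12 included PYGM, which each passed the filter through 1 group alone, so those calls are no support. The counts by role that follow are small and are to be read against the same shares. The median log2 fold change of those tested was -0.11 after NONO KD and -0.31 after PKM2 KD, beside the -0.01 over all genes. The adjusted p-values that follow are edgeR's, over all genes tested.

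Among the genes of breakdown, which serve the phosphorylases and the lysosome among others, 3 of 6 tested were lower and 2 higher after NONO KD, and 5 of 8 were lower and 2 higher after PKM2 KD. PHKA1, the muscle alpha subunit of the phosphorylase kinase that activates the phosphorylases, fell from 28.2 ± 0.46 to 6.29 ± 1.0 CPM after PKM2 KD (log2 fold change -2.16 ± 0.10, adjusted p = 7.35e-09) and from 31.8 ± 2.0 to 26.6 ± 0.33 CPM after NONO KD (-0.25 ± 0.069, adjusted p = 0.0154). PHKA2, the liver alpha subunit, fell after PKM2 KD (-0.75 ± 0.10, adjusted p = 3.3e-05), and after NONO KD its log2 fold change was -0.11 ± 0.080. PHKB, the beta subunit, fell in both (-0.23 ± 0.050, adjusted p = 0.00452 after NONO KD and -0.50 ± 0.051, adjusted p = 3.09e-06 after PKM2 KD), with a difference between the knockdowns of -0.29 ± 0.071 (adjusted p = 0.00252). GAA, the lysosomal alpha-glucosidase, rose after NONO KD by 0.25 ± 0.073 on the log2 scale (adjusted p = 0.0210). PHKG1 and PYGM were called higher after PKM2 KD at few counts, with 9.2 to 11.3 counts of PHKG1 in NC and 10.2 to 22.7 after KD (adjusted p = 0.0453, a call lost under most alternatives), and 1 to 7 counts of PYGM in NC and 11 to 17 after KD. PYGM passed the filter through its KD libraries alone, so that its call is no support, and neither gene was tested in the NONO experiment.

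Of the other targeting subunits of protein phosphatase 1, 1 of 5 tested was lower after NONO KD and 0 higher, and 3 of 5 were lower and 1 higher after PKM2 KD. PPP1R3B, the subunit best known from liver, rose from 10.4 ± 0.64 to 20.4 ± 3.1 CPM after PKM2 KD (0.97 ± 0.11, adjusted p = 1.09e-05), the same sign as PPP1R3C. PPP1R3G, one of the 3 lower, had 31.5 to 42 counts per NC library and 5 to 9 after PKM2 KD, and it passed the filter through its NC libraries alone, so that, as for GYG2, its call is no support. PPP1R3E and PPP1R3F also fell after PKM2 KD, by 0.94 ± 0.16 and 0.43 ± 0.092 on the log2 scale (adjusted p = 0.000291 and 0.00141). PPP1R3D was the one called after NONO KD (-0.53 ± 0.10, adjusted p = 0.00248), and PPP1R3A was under the filter in both experiments.

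Of 11 regulators, 0 were lower and 4 higher after NONO KD, and 4 were lower and 6 higher after PKM2 KD. PRKAG2, a gamma subunit of the energy sensor AMP-activated protein kinase, rose in both (0.27 ± 0.060, adjusted p = 0.00521 after NONO KD and 0.88 ± 0.058, adjusted p = 8.92e-08 after PKM2 KD). The catalytic subunits of protein phosphatase 1 PPP1CC and PPP1CA, and the synthase kinase GSK3B, rose after NONO KD by 0.20 ± 0.045, 0.14 ± 0.041 and 0.19 ± 0.058 on the log2 scale (adjusted p = 0.00564, 0.0183 and 0.0252). PPP1CC lost this call on the TPM scale, and PPP1CA and GSK3B lost theirs there, under the replicate block (adjusted p = 0.0512 and 0.0568) and with any of several single libraries left out. After PKM2 KD the 3 rose by 0.56 ± 0.045, 0.46 ± 0.053 and 0.43 ± 0.057 (adjusted p = 4.54e-07, 1.07e-05 and 3.26e-05). PPP1CB, another catalytic subunit, was 1 of the 6 called higher after PKM2 KD (0.20 ± 0.050, adjusted p = 0.00348). Its TPM went the other way without overlap, from 53.5 ± 2.6 to 47.5 ± 0.35, so its direction depended on the scale. After NONO KD it was not called (-0.10 ± 0.045, adjusted p = 0.111). PPP1CB too is named after its values were seen. PRKAA1, the alpha 1 subunit of the same energy sensor, rose after PKM2 KD (0.61 ± 0.055, adjusted p = 1.28e-06), whereas the alpha 2 subunit PRKAA2, named here after its values were seen, fell (-0.40 ± 0.10, adjusted p = 0.00456) and lost its call on the TPM scale. The TPM of PRKAA1 overlapped, at 44.8 to 62.0 after PKM2 KD against 42.5 to 45.0 in NC, and PRKAA1 lost its call in the unfiltered TPM fit. EPM2A, which encodes the glycogen phosphatase laforin, fell after PKM2 KD (-1.0 ± 0.20, adjusted p = 0.000827), as did STBD1, a glycogen-binding protein (-0.80 ± 0.14, adjusted p = 0.000375). Of these, EPM2A lost its call on the TPM scale, where its log2 fold change was -0.40 with log2(TPM + 1).

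Of 10 genes of glucose phosphate supply, 7 were tested, with 4 lower and 1 higher in each experiment. HK2 and HK1, the hexokinases that make glucose 6-phosphate, fell in both. HK2 went from 177 ± 3.2 to 84.3 ± 5.6 CPM after PKM2 KD (-1.07 ± 0.055, adjusted p = 1.2e-08) and from 196 ± 5.9 to 145 ± 1.1 CPM after NONO KD (-0.44 ± 0.041, adjusted p = 1.97e-05). HK1 fell by 0.80 ± 0.044 after PKM2 KD and by 0.23 ± 0.036 after NONO KD on the log2 scale (adjusted p = 1.96e-08 and 0.000577). SLC37A4, which carries glucose 6-phosphate into the endoplasmic reticulum, fell from 54.4 ± 3.0 to 19.0 ± 2.1 CPM after PKM2 KD (-1.52 ± 0.082, adjusted p = 1.73e-08), and G6PC3, a ubiquitous glucose 6-phosphatase subunit, fell with it (-0.53 ± 0.096, adjusted p = 0.000359). PGM2 and PGM5, relatives of PGM1, fell after NONO KD by 0.45 ± 0.062 and 1.09 ± 0.20 on the log2 scale (adjusted p = 0.00026 and 0.0018), where PGM1 stood at -0.04. PGM5 had 70.5 to 83.4 counts in the NC libraries and 30 to 38 after NONO KD, and it lost its call on the TPM scale. HK3 and G6PC1 were under the filter and were not tested.

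Of 5 genes that use UDP-glucose elsewhere, 2 were lower and 1 higher after NONO KD, and 3 were lower and 2 higher after PKM2 KD. UGDH, which oxidizes UDP-glucose for matrix sugars, fell from 54.6 ± 1.7 to 33.2 ± 0.79 CPM after NONO KD (-0.72 ± 0.056, adjusted p = 4.58e-06). UGGT1, which glucosylates misfolded glycoproteins, rose after NONO KD (0.19 ± 0.041, adjusted p = 0.00423). After PKM2 KD GALT, which makes UDP-galactose, fell by 0.93 ± 0.099 on the log2 scale, UGCG, the glucosylceramide synthase, by 0.44 ± 0.053 and UGGT1 by 0.36 ± 0.071 (adjusted p = 5.16e-06, 1.46e-05 and 0.000668).

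**Figure D4:**
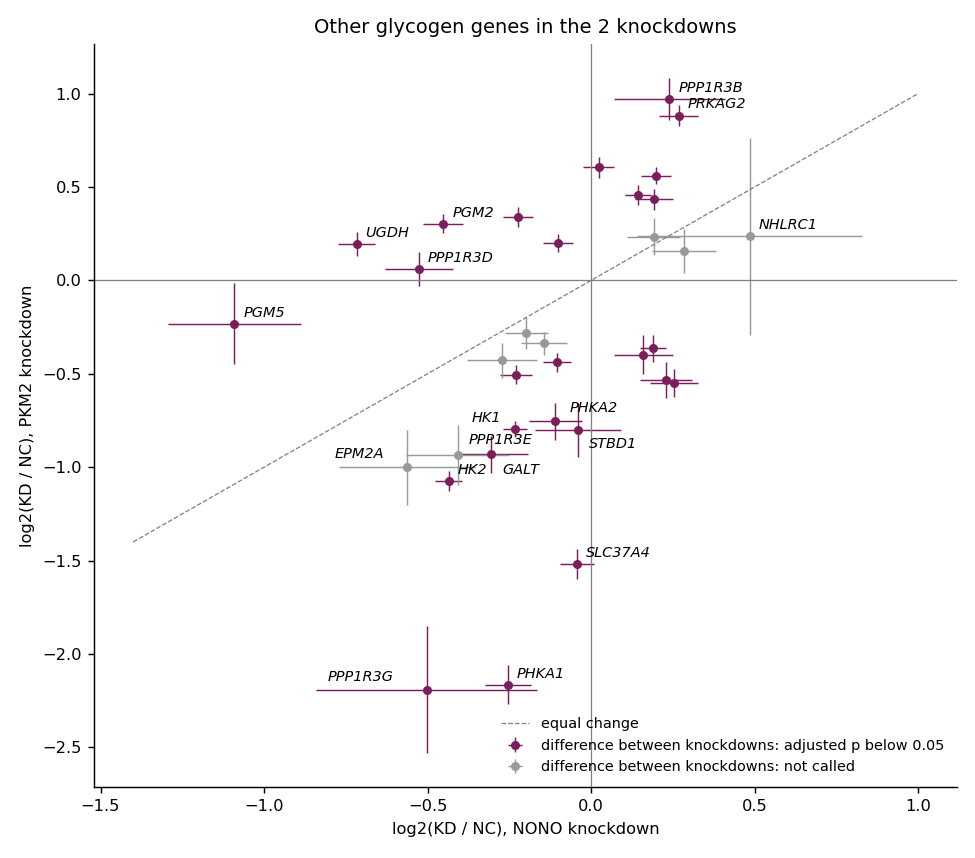
Log2 fold changes of the 34 other glycogen genes tested in both experiments, after NONO KD (horizontal axis) and PKM2 KD (vertical axis), with standard errors; the dashed line marks equal change and purple points differ between the knockdowns at an adjusted p below 0.05. PHKA1 and SLC37A4 lie far below the line, and UGDH and PGM2 lie above it with opposite signs on the axes.

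In 1 edgeR fit over the 12 libraries, the change after PKM2 KD was lower than that after NONO KD for 14 of the 35 other glycogen genes tested and higher for 12, against 27.4% and 25.7% of the 15995 genes tested. PHKA1 had a difference of -1.92 ± 0.13 (adjusted p = 1.54e-09), SLC37A4 of -1.49 ± 0.099 (adjusted p = 1.88e-09) and HK2 of -0.65 ± 0.070 (adjusted p = 5.88e-07). UGDH had a difference of 0.90 ± 0.085 (adjusted p = 1.23e-07) and PPP1R3B of 0.72 ± 0.22 (adjusted p = 0.0119). Breakdown genes were lower after PKM2 KD than after NONO KD in 4 of 7 tested and higher in 0, and regulators were lower in 2 of 11 and higher in 6.

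The genes whose pattern was most like that of GYG2 were found by the Euclidean distance over the 12 libraries of log2 CPM, each value taken from the NC mean of its experiment, among the 14525 genes that passed the filter in both. The nearest were SCUBE3, a secreted glycoprotein gene (distance 1.38), CLDN3, a tight junction claudin (1.44), ADGRB2, an adhesion G protein-coupled receptor (1.47), TRNP1, a nuclear protein (1.5), and CHSY3, a chondroitin sulfate synthase (1.60). None of the 5 was among the glycogen genes listed. CLDN3 had 24 to 36 counts in the NC libraries of the NONO experiment and 8 to 11 after NONO KD, and 32 to 44 and then 1 to 2 in the PKM2 experiment. SCUBE3, with more counts, went from 114 to 122 down to 38 to 50 after NONO KD and from 170 to 204 down to 6.29 to 14 after PKM2 KD. The distance rests on the same libraries and comparisons by which GYG2 was chosen.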

How the data were processed

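RNA-seq of 12 MDA-MB-231 libraries was analysed, with 3 NC and 3 KD libraries per experiment, grouped by their labels. The authors deposited, per gene and library, estimated counts that need not be whole and TPM values, with a gene length per table. Processing notes of the submitters name fastp, HISAT2, StringTie, RSEM, DESeq2, edgeR and limma and the build hg19, without roles. The authors' own fold changes, p-values and group means stand in the same tables and were not used. 0 columns of per-library values were left unused.

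Estimated counts were rounded. edgeR 4.0.16 (R 4.3.3) was run per experiment with TMM factors, filterByExpr (minimum count 10) and the quasi-likelihood test, with Benjamini-Hochberg adjustment over all genes tested. Standard errors came from the F statistic, and CPM is TMM-normalized. The difference between the knockdowns was an interaction over the 12 libraries. The count interval of GYG2 is exact (scipy 1.17.1) and scaled to effective library sizes. The members, the other gene lists and the tests were chosen with earlier results of these data known. From each list of other genes, up to 4 per experiment with the largest absolute log2 fold change among those called were named, besides the members, NONO, PKM, the 5 genes nearest to GYG2 and list genes under the filter. Some genes that this rule covers are counted but not reported here. Alternatives were DESeq2 1.42.0, size factors by relative log expression, every gene with at least 1 count, a replicate block, limma 3.58.1 on log2(TPM + 1) where the mean TPM reached 1, on log2(TPM + 0.1) and on log2(TPM + 1) unfiltered, the study's cutoffs of over 2-fold and raw p under 0.05, removal of the trend with length in 20 bins and each library left out. Removal of the trend with GC content was added after seeing the data. Scripts were tested on simulated data. No pair of replicates agreed within sampling noise (chi-square per degree of freedom 2.33 to 12.3). With 3 libraries per group, no exact permutation test of a single gene can go below 0.1.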

Additional observations from a re-analysis of the deposited data

Results flagged for a closer look

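GYG1 and GYS1 moved up in every NONO KD library and down in every PKM2 KD library relative to all their NC libraries, with differences between the log2 fold changes (PKM2 minus NONO) of -1.31 and -1.27. As members chosen on these comparisons, they were not tested.

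The other glycogen genes given here are 5 that were called in opposite directions in the 2 experiments and also differed between them by the edgeR interaction test. Lower after NONO KD and higher after PKM2 KD were UGDH (difference 0.90, adjusted p = 1.23e-07) and PGM2 (0.74, adjusted p = 1.4e-06). Higher after NONO KD and lower after PKM2 KD were GAA (-0.81, adjusted p = 9.48e-06), G6PC3 (-0.78, adjusted p = 7.63e-05) and UGGT1 (-0.57, adjusted p = 3.41e-05). On the TPM scale 1 of the 2 calls was lost for each of UGDH, PGM2, GAA, G6PC3 and UGGT1. For UGDH this was the call after PKM2 KD. That call was also lost in edgeR without the first KD library or without the first or second NC library (adjusted p = 0.0577, 0.0565 and 0.0823).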

How the results depend on the processing

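Of the 266 alternative values of the members' log2 fold changes, 222 moved by less than the spread between replicates, 44 by more, and none of those called turned its sign. The median of all genes after PKM2 KD shifted to -0.10 when log2(TPM + 0.1) was used. GYG2 had no adjusted p in DESeq2 after NONO KD and was not in the limma fits that filter on TPM, so 1 member was called lower after NONO KD in each of these fits. PYGL lost its call after NONO KD when any of the 3 KD libraries was left out, and PYGB when the second was, so with 1 library left out 1 to 2 members were called lower and 2 to 3 higher. On the TPM scale, filtered at either pseudocount or unfiltered, 1 member and 1 other glycogen gene were called higher after NONO KD, and 7 other glycogen genes after PKM2 KD. Without the TPM filter 6 other glycogen genes were called lower after NONO KD and 1 member higher after PKM2 KD. At over 2-fold and a raw p under 0.05, members lower and higher numbered 1 and 0 after NONO KD and 2 and 0 after PKM2 KD, and other glycogen genes 1 and 0 and then 5 and 1. With 1 library left out, other glycogen genes called numbered 8 to 12 lower and 3 to 7 higher after NONO KD, with 3 higher without the second KD library, 4 without the third and 5 without the first KD or the second NC library. They numbered 18 to 19 lower and 10 to 13 higher after PKM2 KD, and 14 to 15 lower and 10 to 12 higher after PKM2 KD than after NONO KD. PHKG2, G6PC3, PPP1CA and GSK3B after NONO KD and PHKG1 after PKM2 KD lost their calls under most alternatives. PHKA1 and GAA after NONO KD and UGDH after PKM2 KD lost theirs under several.

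Libraries with the same replicate number did not deviate together (correlations from -0.065 to 0.036), so the numbers were not taken as pairs. With a replicate block, 5 other glycogen genes were called higher after NONO KD, and each of the other counts stayed within 1 of its value.

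GYG2, PPP1R3G, PHKG1 and PYGM rest on few counts per library, which limits their precision, and for GYG1 and GYG2 the handling of reads shared with pseudogenes is not given in the sources used here. The cause of these shifts was not tested.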
